A study of Mus musculus with 8 samples.

Results

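The far end of mouse chromosome 15 is a gene-dense piece that carries the type II keratins, the HoxC cluster, the alpha-tubulin genes and a large number of housekeeping genes of transcription, RNA processing and cell division. Its members were chosen by position and by their mean normalized count, as the protein-coding genes that start at or beyond 95 Mb of chromosome 15 in the GRCm38 build and reach a mean of at least 50 normalized counts over all 8 libraries. Genes of the keratin (Krt), integrin (Itg), solute carrier (Slc), collagen (Col) and Wnt families, and Nr4a1, Igfbp6 and Rarg, were set aside by the same rule. Of 197 protein-coding genes that GENCODE annotates there, 139 were in the count table, 94 reached the mean of 50 and 14 of those were set aside, which left 80 members out of 16341 genes counted. All 80 passed the filter on low counts and entered the test.

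The libraries come from 4T1, a mouse mammary carcinoma cell line of BALB/c origin that spreads to the lung when it is grown in mice. RNA-seq was made from 4T1-Sca1+ cells and 4T1-Sca1- cells, parted by magnetic sorting for the surface protein Sca1 (encoded by Ly6a), with 4 libraries of each and no other treatment named. The labels give the cells as CD45-Sca1+ or CD45-Sca1- and, as the study does, as sorted from the parental 4T1 line, although the protocol label speaks of 4T1 tumor. Nothing in the labels says that the 4 libraries of a group are separate sorts, so every p-value measures only the spread between these libraries, which may be technical.

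Genes that lie beside each other share a stretch of chromosome, but the amount of RNA each makes also depends on its own promoter, enhancers and RNA decay. Within a segment the level of one gene therefore need not follow that of its neighbour, and a difference shared by many neighbours is read best from many genes at once. The question here was how even the difference between Sca1+ and Sca1- libraries was along the segment, and which genes departed from it. The files hold RNA counts, and DNA copies were not measured.

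Each library held between 13561804 and 16968215 counts in genes. Ly6a itself, the gene of the sorted protein, had a mean of 167 ± 20.2 normalized counts in Sca1+ and 1.79 ± 1.73 in Sca1- libraries (SD, n = 4 each), as the labels say. It starts at 74.99 Mb of the same chromosome, about 20 Mb before the 95 Mb limit, and is no member. Epithelial markers summed to 56686 to 62486 normalized counts in Sca1+ and 57245 to 61750 in Sca1- libraries. The 8 markers did not move together. Krt8 (log2 fold change 0.31) and Krt18 (0.38) were called higher, and Cdh1 (-0.69), Cldn3 (-0.37) and Krt7 (-0.20) lower. Epcam, Krt19 and Cldn7 were not called. Krt7, Krt8 and Krt18 had the largest means of the list. These keratins are themselves genes of the segment that were set aside, so the epithelial sum is not independent of the segment. The 12 leukocyte markers summed to 168 to 186 in Sca1+ and 79.3 to 120.1 in Sca1- libraries. Of these 12, 10 had no more than 10 counts in any library, and the defining markers Adgre1, Ly6g and Tyrobp were at 0 throughout, with Ptprc at 2.32 against 0.535. Both leukocyte markers that could be tested rose, Cd74 (124.9 against 65.5, edgeR adjusted p = 1.03e-05) and Csf1r (39.8 against 17.8, edgeR adjusted p = 8.38e-05). The 7 fibroblast markers summed to 603 to 647 against 372 to 438. Both that could be tested rose, Pdgfra (560.2 against 364, edgeR adjusted p = 2.28e-07) and Col1a1 (47.6 against 28.6, edgeR adjusted p = 0.00252), while Dcn was at 11.4 against 1.06, Pdgfrb at 6.19 against 0.257, and Col3a1 and Lum at 0. The 5 endothelial markers summed to 33.8 to 40.9 against 42.3 to 63.9 with Kdr at 0. Only Tie1 of these could be tested, and it fell (25.3 against 39.0, edgeR adjusted p = 0.0121). The part of these cells in the results below was not tested, and in bulk RNA fewer cells of a type and less RNA per cell cannot be told apart. Sca1+ replicate 3 stood apart from the other Sca1+ libraries in its base composition. Over all genes tested, the Spearman correlation of a gene's GC content with its deviation from the mean of all libraries was 0.50 there. It was 0.10 to 0.17 in the other 3 and -0.42 to 0.0021 in the Sca1- libraries. The main counts, Aqp5, Pou6f1, Nckap5l and Bcdin3d are therefore also given without that replicate. Among the 10 highest members it was also the highest library in Amigo2, Vdr and Fmnl3. Their log2 fold changes ran from 1.05 to 1.11, 0.97 to 1.07 and 0.92 to 0.99 as each library was left out in turn. Further members where it was highest are given with all 8 libraries only.

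To show what members look like at their RefSeq starts, the promoters of 4 of them are printed: Aqp5 and Pou6f1, which lay far above the level of the segment, Dazap2, which lay at it, and Hnrnpa1, which lay furthest below it. Each runs from 250 bases before to 50 bases after the RefSeq start in GRCm38.p6, 5′ to 3′ on the strand of the gene, with matches to the motifs below in capitals on either strand. The RefSeq starts lie 246 (Aqp5), 0 (Pou6f1), 313 (Dazap2) and 35 (Hnrnpa1) bases from the GENCODE starts. The Dazap2 window lies inside the GENCODE gene, and so does the Aqp5 window but for its first few bases. Asic1, the highest member, is not printed, since its nearest entry lay 21856 bases from its GENCODE start.
Aqp5, chr15:99590778-99591077, plus strand: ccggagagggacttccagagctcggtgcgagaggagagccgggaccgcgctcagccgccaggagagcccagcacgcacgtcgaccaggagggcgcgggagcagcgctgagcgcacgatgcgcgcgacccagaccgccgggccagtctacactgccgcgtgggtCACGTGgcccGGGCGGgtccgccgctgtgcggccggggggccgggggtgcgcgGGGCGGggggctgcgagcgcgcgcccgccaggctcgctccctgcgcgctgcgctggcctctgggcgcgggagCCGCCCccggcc
Pou6f1, chr15:100599935-100600234, minus strand: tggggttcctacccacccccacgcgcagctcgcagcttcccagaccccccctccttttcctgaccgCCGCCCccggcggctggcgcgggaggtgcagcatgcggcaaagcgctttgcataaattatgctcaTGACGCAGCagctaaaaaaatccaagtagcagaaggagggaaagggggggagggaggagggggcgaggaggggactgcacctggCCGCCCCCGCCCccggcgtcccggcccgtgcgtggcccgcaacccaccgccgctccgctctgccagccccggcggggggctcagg
Dazap2, chr15:100615412-100615711, plus strand: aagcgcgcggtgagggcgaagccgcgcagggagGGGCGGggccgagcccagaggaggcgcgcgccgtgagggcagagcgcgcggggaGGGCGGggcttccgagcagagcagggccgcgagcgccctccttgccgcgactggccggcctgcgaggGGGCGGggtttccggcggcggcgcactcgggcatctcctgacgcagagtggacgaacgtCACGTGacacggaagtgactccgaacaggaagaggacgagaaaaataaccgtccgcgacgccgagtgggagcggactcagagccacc
Hnrnpa1, chr15:103240147-103240446, plus strand: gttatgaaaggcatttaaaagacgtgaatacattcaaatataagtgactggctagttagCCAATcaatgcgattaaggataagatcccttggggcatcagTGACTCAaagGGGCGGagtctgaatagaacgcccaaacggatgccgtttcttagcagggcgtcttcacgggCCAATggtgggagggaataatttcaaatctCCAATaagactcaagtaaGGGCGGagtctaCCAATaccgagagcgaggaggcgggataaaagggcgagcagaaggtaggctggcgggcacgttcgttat
The capitals mark GC boxes (GGGCGG, the letters bound by Sp1, itself a gene of the segment), CCAAT boxes (CCAAT), the E-box CACGTG, the AP-1 letters TGANTCA and the antioxidant response letters TGACNNNGC. The 300 bases of Aqp5, Pou6f1 and Dazap2 held 3 GC boxes each, in windows of 79.7%, 70.3% and 72.3% GC. The window of Hnrnpa1 was 48.3% GC and held 2 GC boxes, 4 CCAAT boxes and 1 AP-1 match. The promoters were looked for in 80 members and 72 were matched by symbol in the RefSeq table, so the shares below are over 72. These 72 had 92 promoter entries. A gene was counted as holding a motif if any of its entries held it, so genes with several entries had more chances. Arid2, Adcy6, Ddx23, Rnd1, Rhebl1, Dnajc22, Tmbim6 and Prr13 had no entry.

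A GC box was found for 59 of the 72 members (81.9%). It was found for 71.1% of the 8971 tested protein-coding genes with an entry and 38.2% of all 27025 genes of the table. CCAAT was in 43.1% of members, near the 43.3% of tested genes. TATAAA was in 1 member of 72 (1.39%), against 8.26% of tested genes. The cyclic AMP response letters TGACGTCA were in 1.39% of members and 3.78% of tested genes, and the AP-1 letters in 4.17% and 6.26%. The antioxidant response letters were in 23.6% and 17.1%. The E-box was in 18.1% and 11.9%. Among members that lay above the level of the segment 19 of 25 held a GC box. Among those below it 15 of 21 did, and among those not called 25 of 26. The median GC of the promoters was 62.7% above, 58.0% below and 65.3% among those not called. These matches describe letters in a window and no binding was measured.

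The genes of distal chromosome 15 stood higher in Sca1+ libraries almost throughout. Of 80 members, 70 rose (edgeR quasi-likelihood test, Benjamini-Hochberg adjusted p under 0.05 over 11717 genes), where 31.3% of all genes tested rose. The genes that fell were Rnd1 and Hnrnpa1, 2 of 80, where 30.2% of all genes fell, and 8 were not called. The median log2 fold change of the members was 0.44, which is 1.35-fold, against 0.0074 over all genes. In 77 of 80 members (96.25%) the estimate was above 0, against 50.9% of all genes. The segment was proposed with earlier results of this contrast known, so these counts are a description and carry no p over the members together. The sizes were modest, with the quartiles of the members at 1.21-fold and 1.57-fold, and 9 members reached a log2 fold change of 1.

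The same shift stood in each library taken alone. Against the mean of the Sca1- libraries, the median log2 ratio of the members, taken on normalized counts plus 1, was 0.38, 0.40, 0.46 and 0.44 in Sca1+ replicates 1 to 4. In Sca1- replicates 1 to 4, which form that mean and so lie near 0, it was -0.028, 0.026, -0.010 and 0.011. In every Sca1+ library between 75 and 77 of 80 members were above the Sca1- mean, while in the Sca1- libraries 29 to 53 were. All 4 values of one group lay above all 4 of the other in 67 members with Sca1+ on top, where 26.8% of all genes did so, and in 2 with Sca1- on top, where 27.9% did. Together the members took 0.857% to 0.879% of all counts in Sca1+ libraries and 0.660% to 0.672% in Sca1- libraries, and the 2 ranges did not overlap. Without Sca1+ replicate 3 the median was 0.40 and 68 members rose.

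**Figure D1:**
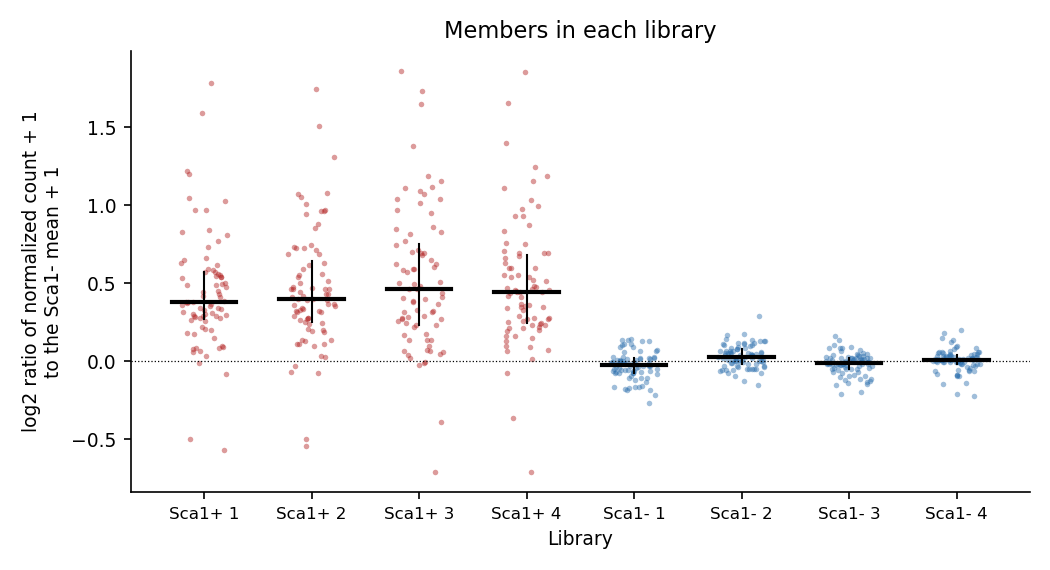
Each point is 1 of the 80 members in 1 library, as the log2 ratio of its normalized count plus 1 to the mean of the Sca1- libraries plus 1; thick bars are medians and thin bars quartiles. The medians are 0.38 to 0.46 in the Sca1+ libraries and -0.028 to 0.026 in the Sca1- libraries. The Sca1- points are taken against their own mean, so their place near 0 and their narrower spread follow from that reference.

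The rise was shared but not even. The interquartile range of the members' log2 fold changes was 0.38 and their SD 0.40, while the SE of a single member had a median of 0.061 and ran from 0.040 to 0.15. Over all genes tested the interquartile range was 0.50, and over the 10035 other protein-coding genes with a mean of at least 50 it was 0.44, so the members were spread slightly less widely around their own median than such genes. Within 0.2 of the median on the log2 scale lay 43 of 80 members. Beyond the shared shift, then, the members differed among themselves by more than their errors.

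Which members departed was tested in a second fit of the whole table. Library sizes in it were scaled so that the members as a group had no difference, and a value of 0 marked the level of the segment. In this fit 27 members lay above the segment level, where 9.66% of all genes did, and 24 lay below it, where 72.0% of all genes did. The large share of all genes below it follows from the scaling, since the median of all genes lay under that of the members. Of the 24 below, 14 were still higher in Sca1+ libraries than in Sca1-, and 10 were not. The 29 with no departure called all rose. Departures were small for most members: 8 lay more than 1.5-fold above the segment level and 2 more than 1.5-fold below it. Asic1 and Aqp5 lay 2.61-fold and 2.36-fold above, and Hnrnpa1 2.08-fold below, which with GC-corrected offsets came to 2.36-fold, 1.92-fold and 1.85-fold. Where the segment level was set by the summed counts of the members instead, to which abundant members give most, 35 lay above it and 13 below.

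**Figure D2:**
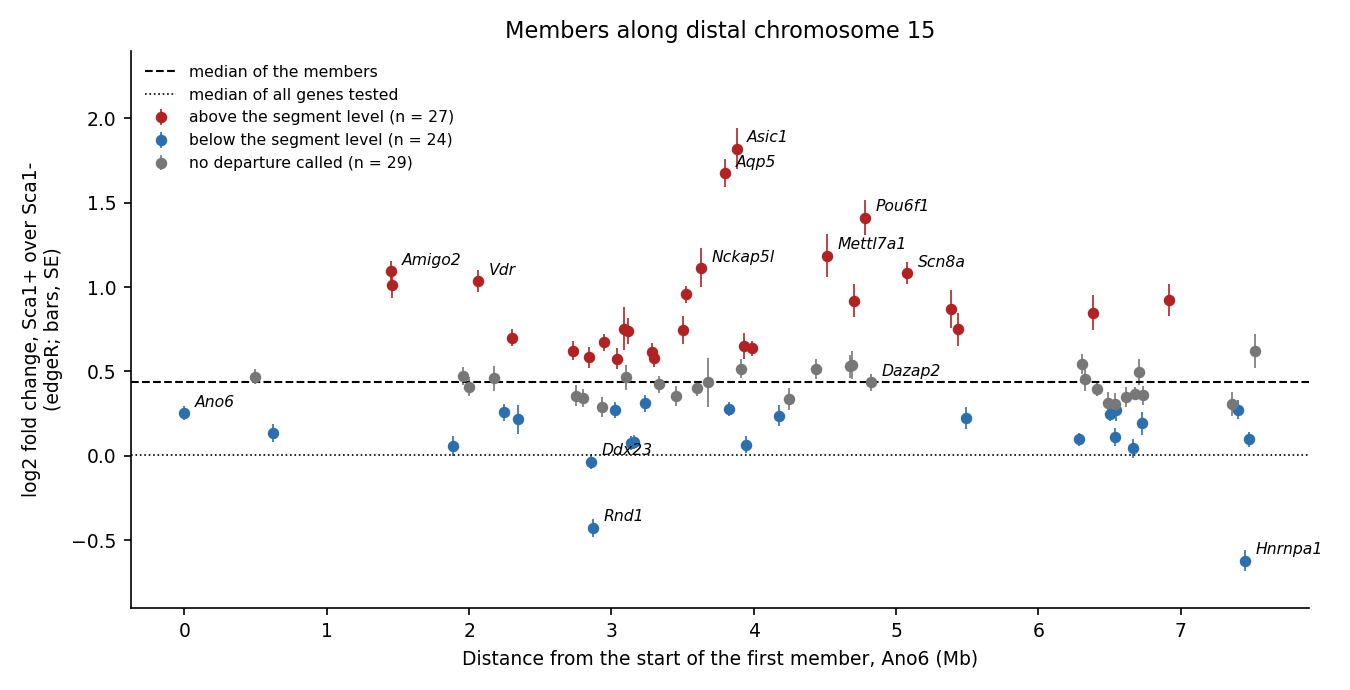
Log2 fold change (Sca1+ over Sca1-, edgeR, with SE bars from 4 libraries a group) of each of 80 members against its distance in Mb from the start of the first member, Ano6; colours give the test of departure from the segment level. Red and blue points are mixed along most of the length, Asic1 and Aqp5 stand highest, and Rnd1 and Hnrnpa1 are the points well below 0.

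Highest of all was Asic1, an acid-sensing sodium channel best known from neurons (chr15:99670368-99701130, plus strand). Its normalized counts were 133, 130.2, 129 and 140.0 in Sca1+ replicates 1 to 4, against 33.4, 41.1, 34.5 and 43.4 in Sca1- replicates 1 to 4. Every Sca1+ library was at more than 3 times the Sca1- mean of 38.1, and the groups were far apart (log2 fold change 1.82 ± 0.12 (SE), adjusted p = 9.92e-10, fold 3.53). Relative to the segment level it lay 2.61-fold above (edgeR adjusted p = 9.39e-09). It is among the 4 members with the lowest means, at 85.6 normalized counts over all libraries. Its Sca1- mean was under the limit of 50, so Asic1 became a member only through its Sca1+ libraries. Aqp5 encodes a water channel of the apical membrane in secretory epithelia such as salivary gland and lung, and lies shortly before Asic1 (chr15:99590782-99594829, plus strand). Its counts were 658, 621, 795 and 689 in Sca1+ replicates 1 to 4, against 209, 235, 200.4 and 228 in Sca1- replicates 1 to 4. The lowest Sca1+ library was well over the highest Sca1- library, and the change was 3.19-fold (log2 fold change 1.67 ± 0.082 (SE), adjusted p = 1.31e-11). Aqp5 was 2.36-fold above the segment level (edgeR adjusted p = 1.24e-10), and its Sca1+ replicate 3 was the highest library. Without that replicate it was 2.26-fold above.

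Next came Pou6f1, a transcription factor with a POU domain and a homeodomain (chr15:100575318-100599984, minus strand). Its counts were 311, 334, 424 and 357 in Sca1+ replicates 1 to 4, against 143, 139, 141 and 115 in Sca1- replicates 1 to 4. The groups did not overlap (log2 fold change 1.41 ± 0.10 (SE), adjusted p = 2.73e-09), and it lay 1.97-fold above the segment level (edgeR adjusted p = 6.06e-08), or 1.86-fold without Sca1+ replicate 3. Mettl7a1, a methyltransferase-like protein of membranes and lipid droplets, was a low gene with 99.6, 88.8, 92.8 and 102 in the Sca1+ libraries and 46.8, 38, 42.3 and 42.2 in the Sca1- libraries. Its fold was 2.28 and the 2 groups stood clear of each other (edgeR adjusted p = 3.64e-07). With a Sca1- mean of 42.3, under the limit of 50, Mettl7a1 too became a member only through its Sca1+ libraries. Nckap5l, a microtubule-binding protein of the centrosome, had 392, 425, 576 and 503 in the Sca1+ libraries and 212, 270.0, 199 and 199.8 in the Sca1- libraries. Relative to its means it varied more within the groups than its neighbours in rank, with SDs of 82.2 and 33.7, and rose 2.16-fold (edgeR adjusted p = 2.35e-07). Its log2 fold change of 1.11 was 1.01 without Sca1+ replicate 3 and 0.73 with GC-corrected offsets.

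Vdr and Scn8a were also about doubled. Vdr, the nuclear receptor for vitamin D, had 668, 686, 738 and 682 in the Sca1+ libraries and 305, 361, 336 and 364 in the Sca1- libraries (chr15:97854425-97910630, minus strand). That was a rise of 2.05-fold with no overlap (edgeR adjusted p = 4.69e-10). Scn8a, the pore subunit of a voltage-gated sodium channel, had 503, 477, 519 and 543 in the Sca1+ libraries and 244, 234, 247 and 248 in the Sca1- libraries. Its Sca1- libraries lay close together, and its fold was 2.12 (edgeR adjusted p = 2.84e-10). Fmnl3, a formin that elongates actin filaments, had the highest level per kb of exon of the 10 highest members. Its counts were 1963, 2138, 2249 and 2088 in the Sca1+ libraries and 1064, 1081, 1127 and 1112 in the Sca1- libraries, a fold of 1.94 (edgeR adjusted p = 3.1e-11).

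Amigo2 and Pced1b are side by side on opposite strands, and their exons overlap at the ends. Amigo2, a cell surface protein with leucine-rich repeats and an immunoglobulin domain, had 796, 822, 893 and 799.9 in the Sca1+ libraries and 388, 387, 392 and 397 in the Sca1- libraries. Pced1b had 344, 369.8, 355 and 334 in the Sca1+ libraries and 174, 169, 193 and 164 in the Sca1- libraries. Their folds were 2.14 and 2.02 (edgeR adjusted p = 3.62e-11 and 4.16e-09). Strand use in the counting is not given in the sources used here, so reads of the shared stretch could not be assigned with certainty and both values are uncertain to that extent. In all, 17 members have exons that overlap another counted gene. Over the other 63 members, an alternative chosen after seeing the data, 54 rose, 2 fell and the median was again 0.44.

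**Figure D3:**
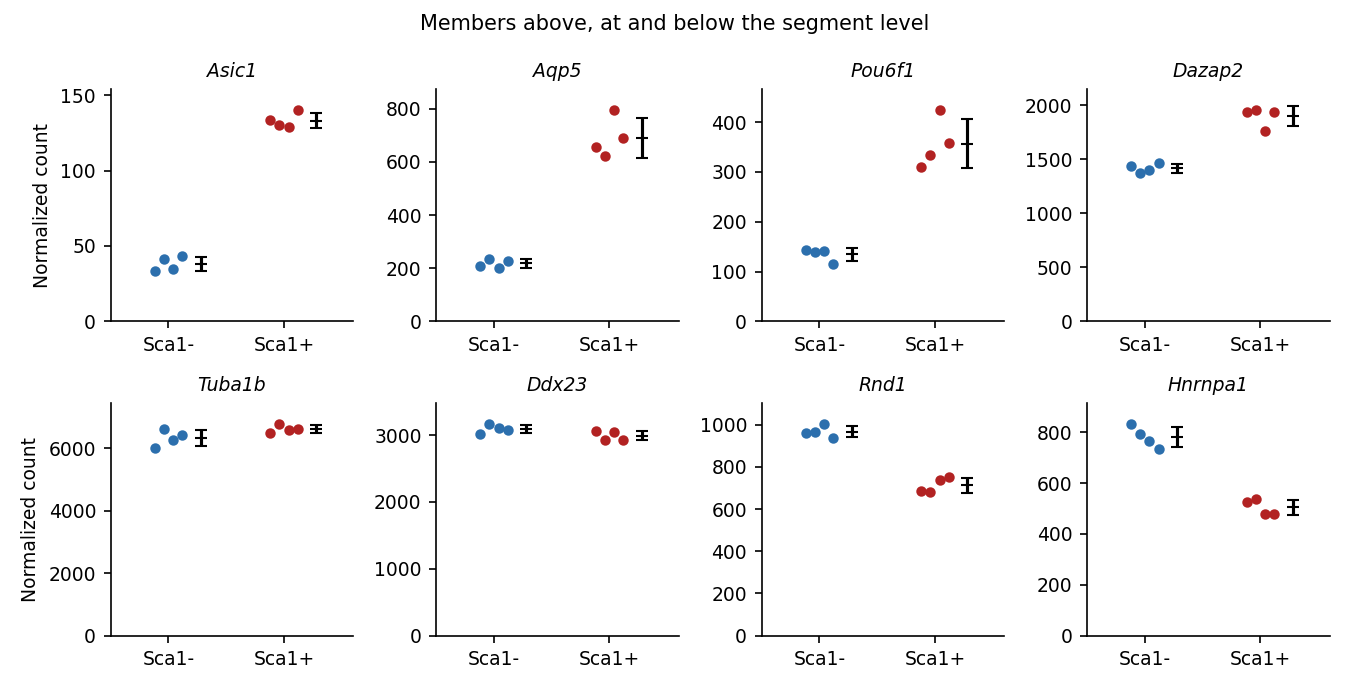
Normalized counts in each of the 4 Sca1- (blue) and 4 Sca1+ (red) libraries for members above the segment level (Asic1, Aqp5, Pou6f1), at it (Dazap2) and below it (Tuba1b, Ddx23, Rnd1, Hnrnpa1); black marks are mean and SD, and each axis starts at 0. Groups are apart in the upper row, overlap for Tuba1b and Ddx23, and are turned around for Rnd1 and Hnrnpa1.

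Members at the level of the segment show what the shared shift looks like in 1 gene. Dazap2, close to the median, had 1935, 1954, 1762 and 1939 in Sca1+ replicates 1 to 4, against 1433, 1371, 1397 and 1466 in Sca1- replicates 1 to 4. The lowest Sca1+ value was above the highest Sca1- value although the fold was only 1.35 (log2 fold change 0.44 ± 0.049 (SE), adjusted p = 6.05e-07). Bcdin3d, an RNA methyltransferase and the member with the lowest mean, had 62.2, 60.2, 85.8 and 71.8 in the Sca1+ libraries and 54.4, 58.5, 47.9 and 46.8 in the Sca1- libraries. Its fold was the same, 1.35, but its SE of 0.15 was the largest of all members, and its adjusted p of 0.016 by edgeR went to 0.067 without Sca1+ replicate 3. The next nearest to the median were Spats2 (log2 fold change 0.43), Spryd3 (0.46) and Tmem106c (0.46), each with an edgeR adjusted p of 3.88e-05 or less.

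Against the direction of the segment went Hnrnpa1 and Rnd1. Hnrnpa1 encodes an abundant RNA-binding protein that steers splice site choice (chr15:103240432-103246692, plus strand). Its counts were 526, 535, 477 and 478 in Sca1+ replicates 1 to 4, against 831, 794, 767 and 734 in Sca1- replicates 1 to 4. All Sca1+ libraries were below all Sca1- libraries (log2 fold change -0.62 ± 0.061 (SE), adjusted p = 1.35e-07), and relative to the segment it lay 2.08-fold below (edgeR adjusted p = 1.29e-10). Hnrnpa1 has near-identical processed pseudogenes in the genome, and how reads shared with them were counted is not given in the sources used here, so its level is uncertain. Rnd1, a small GTP-binding protein that loosens the actin cytoskeleton and cell adhesion, lies next to Ddx23 (chr15:98663421-98677461, minus strand). Its counts were 684, 682, 737 and 751 in Sca1+ replicates 1 to 4, against 959, 967, 1002 and 938 in Sca1- replicates 1 to 4. It fell without overlap (log2 fold change -0.42 ± 0.053 (SE), adjusted p = 2.14e-06) and stood 1.82-fold below the segment (edgeR adjusted p = 1.11e-10). Both kept their direction and their call in every alternative run.

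Not called in either direction were 8 members. Ddx23, a helicase of the spliceosome, had 3066, 2932, 3038 and 2929 in the Sca1+ libraries and 3011, 3159, 3111 and 3074 in the Sca1- libraries. The groups overlapped, with a log2 fold change of -0.033 (edgeR adjusted p = 0.507) that was 0.0096 with library totals alone and -0.16 with a correction for GC content (adjusted p = 0.000278). Rpap3, a cochaperone that helps to assemble RNA polymerase II, had 0.06, and Cers5, a ceramide synthase, 0.067. Copz1, a subunit of the coatomer that carries Golgi vesicles, had 0.10 and Prr13 0.044, which was -0.024 with the GC correction and -0.0052 without Sca1+ replicate 4. Pfdn5, a subunit of the prefoldin chaperone, is outside the rule for named genes and is given for completeness at 0.11. The other two are tubulins. All 8 were called below the segment level, by 1.25-fold to 1.38-fold. Eif4b, a factor that helps the translation machinery unwind messenger RNA and the member with the most counts, had 10111, 9696, 9951 and 10355 in the Sca1+ libraries and 9265, 9635, 9382 and 9541 in the Sca1- libraries. It was called higher with a log2 fold change of 0.10 (edgeR adjusted p = 0.0413), a call that was lost in 12 alternatives.

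The alpha-tubulin genes Tuba1b, Tuba1a and Tuba1c lie in a row and make the alpha chain of the microtubule subunit. Tuba1b had 6481, 6767, 6584 and 6627 in the Sca1+ libraries and 6023, 6629.5, 6263 and 6419 in the Sca1- libraries, and Tuba1a had 3856, 3999, 3809 and 3902 in the Sca1+ libraries and 3596, 3741, 3750.2 and 3745 in the Sca1- libraries. Tuba1c had 5674, 5579, 5122 and 5079.5 in the Sca1+ libraries and 4192, 4349, 4622 and 4275 in the Sca1- libraries. Neither Tuba1b (log2 fold change 0.076, edgeR adjusted p = 0.13) nor Tuba1a (0.083, 0.0913) passed the test, and with the GC correction they turned to -0.10 (adjusted p = 0.014) and -0.040. Tuba1c rose (0.31, edgeR adjusted p = 3.2e-05) and all 3 were called below the segment level. The difference between Tuba1c and the other two was not tested. Their coding sequences are 98.3% identical between Tuba1a and Tuba1b, 97.1% between Tuba1a and Tuba1c and 97.9% between Tuba1b and Tuba1c, with unbroken identical runs of 281, 446 and 468 bases. Reads inside such runs match more than 1 gene, so the division of counts among the 3 is uncertain.

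By function, the median log2 fold change was above 0 in every list with members. All 10 transcription factors rose, with a median of 0.53. Of them 3 were above the segment and none below, where 9.66% and 72.0% of all genes were. Among all 80 members 27 were above and 24 below. The transcription factors include Atf1 of the CREB family (0.51), the GC-box factor Sp1 (0.35), the zinc finger protein Zfp740 (0.40) and Pou6f1. Of 12 signaling genes 11 rose and Rnd1 fell, with a median of 0.54, 6 above and 2 below the segment. Among them were Acvr1b, a type I receptor of activin (0.87), Arf3, a GTPase of vesicle traffic (0.67), and Cacnb3, a subunit of voltage-gated calcium channels (0.58). Of 9 genes of mitochondria and metabolism 8 rose, at a median of 0.53, among them Cox14, which helps assemble cytochrome c oxidase (0.65), and 4 were above and 2 below the segment. These values are log2 fold changes, to be read against the 31.3% of all genes that rose.

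The remaining lists had lower medians of the log2 fold change, and again 31.3% of all genes rose. Of 8 chromatin genes 7 rose at a median of 0.38, among them Kansl2 of a histone acetyltransferase complex (0.62), the histone deacetylase Hdac7 (0.41) and Cbx5, the heterochromatin protein HP1 alpha (0.27). Of 10 genes of RNA processing and translation 8 rose, 1 fell and 1 was not called, at a median of 0.25, the lowest of the lists. Of these 10, 6 were below the segment and 1 above, where 72.0% and 9.66% of all genes were. Among all 80 members 24 were below and 27 above. The 1 RNA gene above was Prpf40b, a protein of early splice site recognition (0.74). Pcbp2, which binds poly(C) stretches of RNA, was at the segment level (0.37). Of 12 genes of tubulin, cytoskeleton and division 9 rose and 3 were not called, at a median of 0.37, with 4 above and 6 below. Of 10 genes of the membrane and secretory pathway 8 rose, at a median of 0.43, including Tmbim6, an inhibitor of cell death in the endoplasmic reticulum (0.40). The lists were written with earlier results known, no test compared them, and 9 members belong to none.

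The HoxC cluster and the blood cell genes of the segment gave no members. Among the blood cell genes Itgb7, an integrin of lymphocytes, was well expressed but set aside with its family, at 1086 against 509.9 normalized counts (edgeR adjusted p = 1.31e-11). Of 9 listed Hoxc genes 3 were counted, with at most 42 counts each over all 8 libraries. Nckap1l, a WAVE complex subunit of blood cells, was the gene just outside the mean of 50, at 35.1. Its counts were 60.3, 67.1, 62.8 and 49.9 in the Sca1+ libraries and 11.5, 11.3, 7.79 and 10.3 in the Sca1- libraries, and its log2 fold change of 2.54 was larger than that of any member. The next below the limit were Atp5g2 at a mean of 28.2, Ccdc65 at 27.6 and Npff at 23.9, with log2 fold changes of -0.19, -0.79 and 0.53. Just inside were Bcdin3d at 60.9, Mettl7a1 at 69.0, Asic1 at 85.6 and Rhebl1, a small GTPase, at 109 with a log2 fold change of 0.75. Under the limit lay 43 protein-coding genes of the segment in the normalized table, 32 outside the families set aside and 11 within them. Of the 32, 7 were tested, of which 4 rose and 1 fell, and of the 11, 2 were tested and both rose. Of the 14 genes set aside that reached the limit 10 rose and 3 fell, at a median of 0.35.

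Along the segment the shift did not climb or decline steadily. In 1 Mb steps from 95 Mb the median log2 fold change was 0.25 (1 member), 0.30 (2), 0.47 (7), 0.35 (18), 0.55 (18), 0.54 (9), 0.75 (3), 0.35 (17) and 0.27 (5). The Spearman correlation of the fold change with position, which reads only a steady climb or decline, was -0.092 over 80 members, which share libraries and in part sequence. Between neighbours the Pearson correlation was 0.10 over 79 pairs, and the median absolute difference within a pair was 0.38 on the log2 scale, as large as the interquartile range of the members. Members on the plus strand (39) and the minus strand (41) had the same median of 0.44. From 100 to 101 Mb, where Pou6f1 and Scn8a lie, all 9 members rose and none was below the segment level. From 98 to 99 Mb 7 of 18 were above it and 7 below. Among all 80 members 70 rose, 27 were above the segment level and 24 below. Of all genes tested 31.3% rose, 9.66% were above that level and 72.0% below. The differences between steps were not tested.

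The medians of the steps from 99 to 102 Mb stood above those of the steps at 98, 102 and 103 Mb in each of the 4 Sca1+ libraries taken alone. They were 0.51, 0.58 and 0.54 against 0.29, 0.28 and 0.31 in Sca1+ replicate 1, for instance, and these differences were not tested. The step at 97 Mb (7 members) did not keep to this order. It was at 0.53, 0.39, 0.59 and 0.48 in Sca1+ replicates 1 to 4. That was above the 99 Mb step in replicate 1 and above the 100 Mb step (0.57) in replicate 3. The step at 101 Mb holds only 3 members.

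Fold changes also went with the level of a member. Of all genes tested 31.3% rose. Per kb of exon, the 27 members with the lowest levels (13.1 to 119.7 normalized counts per kb) had a median log2 fold change of 0.74 and all 27 rose. The middle 26 had a median of 0.35 with 22 risen, and the highest 27 (319 to 3453 per kb) had 0.31 with 21 risen. The Spearman correlation of level per kb with fold change was -0.51 over the 80 members, -0.24 over all genes tested and -0.19 over the other protein-coding genes with a mean of at least 50. Level and fold change come from the same counts. The lowest group also holds Asic1 and Mettl7a1 (14.9 and 26.6 per kb), which became members only through their Sca1+ libraries. With the GC content of the exons the correlation was 0.34 over members and 0.28 over 11616 genes, and members of low, middle and high GC (27, 26 and 27 genes) had medians of 0.34, 0.46 and 0.58. Without Sca1+ replicate 3, an alternative chosen after seeing the data, the correlation over members was 0.29 and the medians were 0.33, 0.45 and 0.52. With a correction for GC content in each library 62 members rose and 4 fell, where 27.7% of all genes rose, at a median of 0.33, and 27 lay above and 25 below the segment. The part of base composition in the single departures was not tested.

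**Figure D4:**
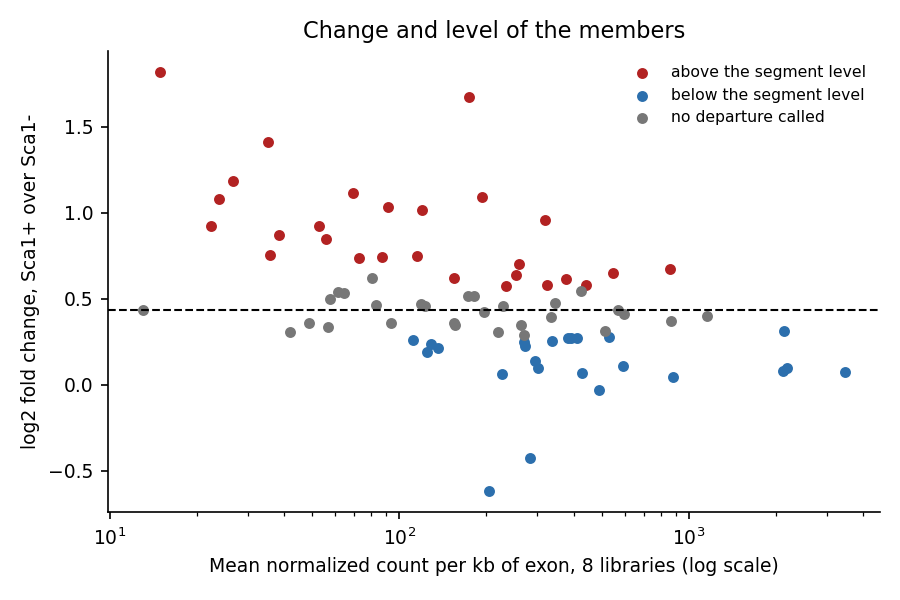
Log2 fold change of each of 80 members against its mean normalized count per kb of exon over 8 libraries, on a log axis; the dashed line is the median of 0.44 and colours give the departure test. Members above the segment level lie mostly to the left and those below it to the right; the Spearman correlation is -0.51.

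On chromosome 15 the shift was not limited to the segment. Before 70 Mb the median log2 fold change of 142 tested protein-coding genes was -0.0021 and 29.6% rose. From 70 to 80 Mb, where Ly6a lies, it was 0.31 over 118 genes with 66.1% risen, and from 80 to 90 Mb 0.26 over 90 genes with 61.1% risen. From 90 to 95 Mb it was 0.058 over 14 genes with 35.7% risen. At and beyond 95 Mb, genes set aside and low genes included, it was 0.44 over 103 genes with 83.5% risen. These 14 genes lie between the segment and the stretch before it, and the difference between these stretches was not tested.

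Set beside the rest of the genome the segment stood near the top. In 5 Mb windows with at least 10 tested protein-coding genes, the window from 95 to 100 Mb had a median of 0.47 and the window from 100 to 105 Mb 0.37, in places 3 and 5 of 371 windows. By the share of genes that rose they were in places 1 and 2, with 86.8% and 80%. A median above that of the members was found in 3 of 371 windows (0.809%), 1 of them the window from 95 to 100 Mb itself. The interquartile range inside these 2 windows was 0.43 and 0.46, against a median of 0.43 over all windows. Chromosome 15 as a whole had the highest median of all chromosomes, 0.23 over 467 genes.

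**Figure D5:**
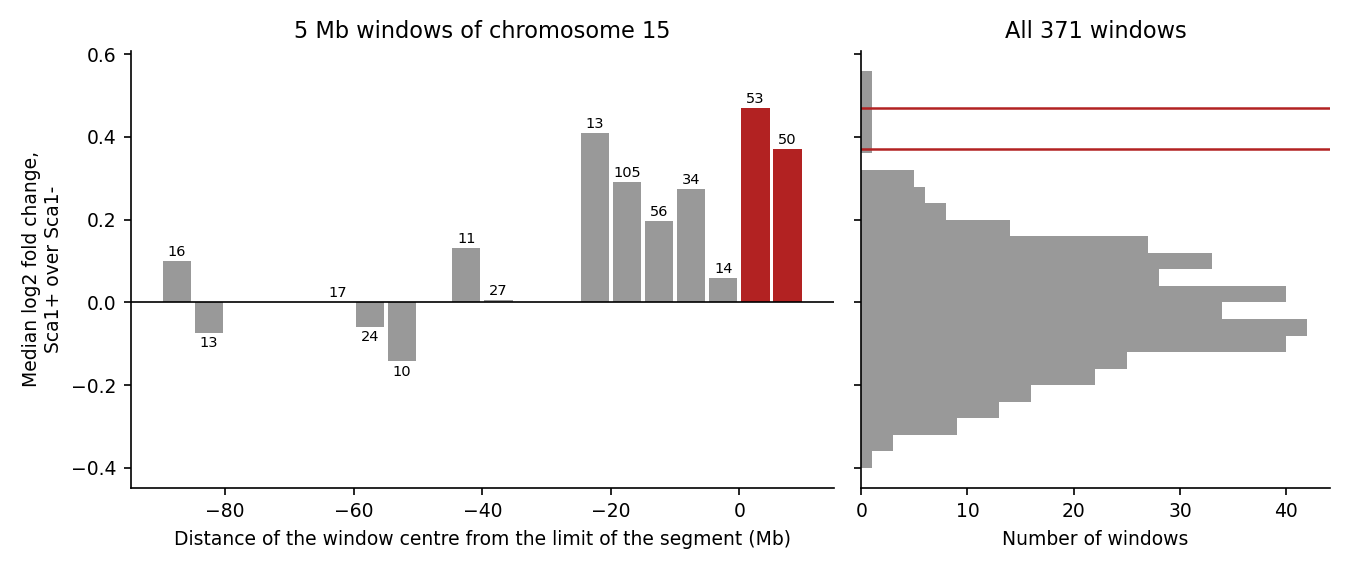
Left, median log2 fold change (Sca1+ over Sca1-) of tested protein-coding genes in 5 Mb windows of chromosome 15, against distance in Mb from the limit of the segment, with the number of genes on each bar and the segment in red. Right, the number of windows of the whole genome at each median, with red lines at the 2 windows of the segment (0.47 and 0.37), which lie at the upper end of 371 windows.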

How the data were processed

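RNA was sequenced from 4 4T1-Sca1+ and 4 4T1-Sca1- libraries (TruSeq RNA V2, NextSeq 500). Per the labels, the submitters' processing notes name cutadapt 1.16, STAR 2.5.3a and GRCm38/mm10. The counting tool, its annotation and its use of strand are not given in the sources used here. The deposited count table holds raw counts per gene. The deposited normalized counts (a signal unit) are those counts divided by DESeq2 size factors, checked to a relative difference of 5.11e-15, and lack 969 genes with a single count. Gene positions come from GENCODE M21 of the same build, in which 139 counted genes had no match.

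The members and lists were chosen with earlier results of these data known. Counts were tested in R 4.3.3 with edgeR 4.0.16 (quasi-likelihood, TMM, filterByExpr), over 11717 genes with Benjamini-Hochberg adjustment and a threshold of 0.05. The test the study used for these counts is not given in the sources used here. Departure from the segment level used the same fit with library sizes set by the members' median-of-ratios factors. Alternatives included DESeq2 1.42.0, limma 3.58.1, other scalings, filters and limits, a GC correction, and each library left out. Library totals of 13561804 to 16968215 counts give a common coefficient of biological variation of 0.0541. The procedure was tested on simulated data. Named are the 10 highest, 10 lowest and 5 members nearest the median, those around the mean of 50, up to 4 examples a list and Ly6a. Promoters are from RefSeq.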

Additional observations from a re-analysis of the deposited data

Results flagged for a closer look

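Within a group of 4 libraries, 1 library lay far from the other 3 for 3 of 54 gene and group pairs examined, where chance flags about 1 in 20. Pou6f1 had 115 normalized counts in Sca1- replicate 4, where the other 3 Sca1- libraries had 139 to 143. Tuba1a had 3596 in Sca1- replicate 1, where the others had 3741 to 3750. Dazap2 had 1762 in Sca1+ replicate 3, where the others had 1935 to 1954. Left out 1 at a time, no library changed the call of Pou6f1, Tuba1a or Dazap2.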

How the results depend on the processing

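Of 150 recomputed summary values 143 kept their direction and size, and of 519 recomputed values for 26 single genes 492 kept their direction and call. The median log2 fold change of the members was 0.48 with library totals alone and 0.33 with GC-corrected offsets, and the members that fell numbered 4 with GC-corrected offsets and 5 of 94 with the families put back. With library sizes set by the summed counts of the members, 13 members lay below the segment level. The share of windows with a median above that of the members was 1.70% with 2 Mb windows and 0% of 250 with 10 Mb windows. With 2 Mb windows these were 7 of 412, and 4 of the 7 lay on chromosome 15. Ddx23 turned to 0.0096 with library totals alone, and with GC-corrected offsets Tuba1a turned to -0.040, Tuba1b to -0.10 and Prr13 to -0.024. The cause was not tested. Leaving out each library in turn gave 67 to 69 members risen, 2 fallen, a median of 0.40 to 0.45, an interquartile range of 0.36 to 0.42, 24 to 27 above and 22 to 25 below the segment, and -0.0052 to 0.078 for Prr13. With the replicate block 69 members rose, 2 fell, the median was 0.43, and 26 lay above and 23 below the segment. The deviations of same-numbered libraries correlated by 0.096, -0.15, -0.034 and -0.0011, which gives no sign of pairing by number. At an adjusted p under 0.01 65 rose and 2 fell. The scalings other than that by the members give no departure value of their own. Low members, such as Bcdin3d, are limited by depth.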
